A study of Macaca mulatta with 5 samples.

Results

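A set of 10 transcription regulators known for marking or specifying classes of newborn neurons was followed across 5 RNA sequencing libraries of rhesus macaque neural cells. They are MAB21L1, MAB21L2, BCL11A, NR4A2, LHX1, LHX5, LHX9, EBF1, EBF3 and PRDM8. They were picked by name as factors that appear in neurons after 13 days of differentiation, so their neuron values are given as a description and carry no test. Of the 10 genes, 9 were matched to a row among the 16970 genes of the deposited table, and 8 of these 9 passed the filter that left 12178 genes for testing (at least 1 FPKM and at least 20 reads in at least 1 library). MAB21L1 carried no symbol and was matched through its RefSeq peptide. PRDM8, which in the mouse represses genes together with BHLHE22, was matched to no row and is not analysed here. LHX9 was in the table with at most 2 reads in any library.

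All cells came from embryonic stem cells of Macaca mulatta. Neuroepithelial stem cells (NESC), early progenitors of the neural tube, had 1 library each at passages 5, 24 and 36, grown with 3 µM CHIR99021 (a GSK3 inhibitor), 10 ng/ml bFGF, 1000 U/ml hLIF and 5 µM SB431542, which blocks TGF-beta receptors. Radial glial progenitor cells (RGPC, 1 library) were made from passage 36 by culture for 7 days without CHIR99021, and neurons (1 library), also from passage 36, by 13 days in a medium with none of these 4 agents, on laminin at 5 µg/ml and gelatin at 0.05%. The RGPC and neuron libraries had no replicates, and nothing in the labels tells whether NESC libraries came from separate cultures. Every p-value rests on the spread between NESC libraries, which differ in passage, moderated by the spread of other genes. For passage 5 against later passages, the spread comes from passages 24 and 36 only. How much of the spread is technical is not known.

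Expression is given as FPKM, the authors' fragment count adjusted for length of the transcript and depth, and as reads recovered from the deposited normalized counts. Recovered reads came to between 5403437 and 7899991 per library. Between neurons and RGPC, limma called 15.1% of the genes tested (1836), and 0 without the passage 24 NESC library. For 10 pan-neuronal markers, the summed level was 632 to 688 FPKM in the NESC libraries, 1039 FPKM in RGPC and 5243 FPKM in neurons, while 6 of 7 progenitor markers in the table were lower in neurons than in every NESC library. The progenitor gene SOX2 was still at 105 FPKM in neurons against 153 to 201 FPKM in the NESC libraries, and NES at 114 FPKM against 348 to 470 FPKM, whereas the proliferation gene MKI67 was at 2.31 FPKM against 45.2 to 84.6 FPKM. In such bulk samples, fewer cells of a type and less RNA per cell cannot be told apart.

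By way of background, a postmitotic neuron acquires its subtype through combinations of transcription factors that come on as its progenitor leaves the cell cycle. LIM homeodomain proteins such as LHX1, LHX5 and LHX9 label distinct interneuron classes of the developing spinal cord and brainstem, and act with the adaptor LDB1. EBF proteins, also called COE factors, promote migration and differentiation of new neurons. BCL11A is a zinc finger repressor and a subunit of BAF chromatin remodelling complexes in neurons, NR4A2 is the orphan nuclear receptor of midbrain dopamine neurons, and the MAB21-like proteins are developmental regulators known from eye and midbrain.

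The MAB21 pair gave the most abundant factor of the set. MAB21L2 (ENSMMUG00000002220, chromosome 5, 142496720 to 143269472, genome build not stated in the labels) was at 0.231, 0.180 and 0.0650 FPKM in the NESC libraries of passages 5, 24 and 36, at 1.30 FPKM in RGPC and at 563 FPKM in neurons. These values rest on 3, 2 and 1 reads across NESC, 16 reads in RGPC and 5938 reads in neurons. Neurons stood far above the other libraries, and there the gene ranked 206 by FPKM among the 12178 genes tested. It made up 66.1% of the summed FPKM of the 9 factors in neurons and 4.46% of it in RGPC. Relative to library totals, neurons held 423 times as many MAB21L2 reads as RGPC, with a 95% interval of 261 to 741 from counting error alone.

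Its paralog MAB21L1 (ENSMMUG00000005425, chromosome 17, 14447913 to 14956031) was listed at 0 in NESC of passage 5 and was at 0.247 and 1.47 FPKM in passages 24 and 36. RGPC stood at 2.05 FPKM and neurons at 45.8 FPKM, from 9 and 170 reads. RGPC and its parent passage 36 were close for this gene, with 9 reads against 8. MAB21L2 was below MAB21L1 in RGPC (ratio 0.633) and in passages 24 and 36 (0.728, from 2 reads against 1, and 0.0442). It was above MAB21L1 in neurons (ratio 12.3) and, with 3 reads against 0, in passage 5.

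**Figure D1:**
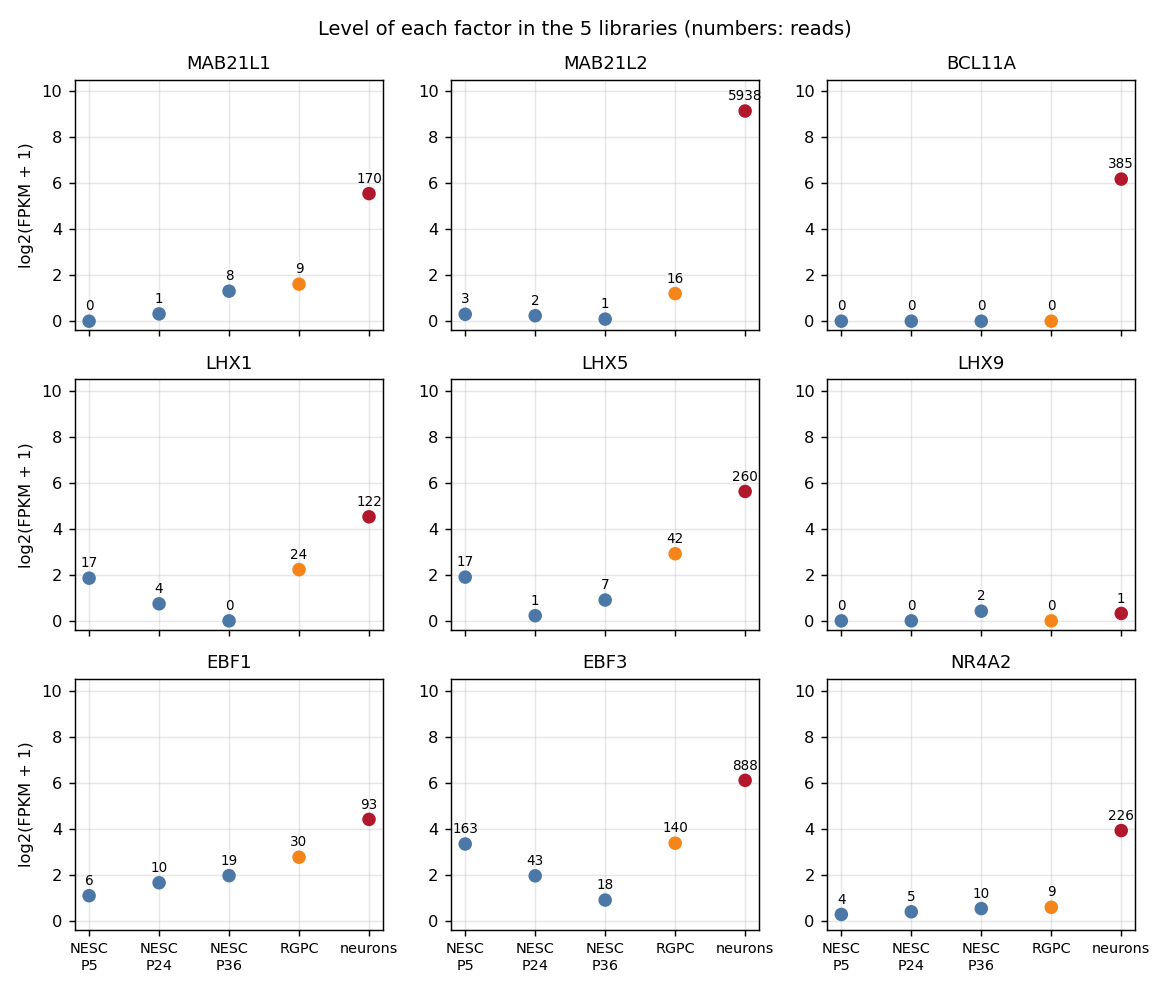
Level of each of the 9 measured factors in the 5 libraries, as log2(FPKM + 1) on the vertical axis, with recovered reads printed above each point (blue NESC, orange RGPC, red neurons, 1 library per point). Neurons are the highest library for 8 of the 9 factors, MAB21L2 stands farthest from its other libraries, and LHX9 stays near 0 throughout.

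Both MAB21-like genes share their deposited locus with a larger gene. MAB21L1 lies in the locus of NBEA, which encodes a neuronal trafficking protein, and MAB21L2 in that of its relative LRBA. Nothing in the labels tells whether counting used strand, so reads of a member and of its overlapping partner may not be fully separated. NBEA was at 6.65, 6.16 and 5.88 FPKM in the NESC libraries, 10.1 FPKM in RGPC and 67.3 FPKM in neurons, and it rose in neurons (log2 fold change 3.24 ± 0.26 SE, limma adjusted p = 0.00440). MAB21L1 was at 0 to 0.250 times the NBEA level in NESC, 0.203 times in RGPC and 0.680 times in neurons, so the pair did not keep a fixed ratio. LRBA did not pass, at 13.7, 11.0 and 12.1 FPKM in the NESC libraries against 22.6 FPKM in neurons (0.83 ± 0.27, limma adjusted p = 0.0637). Its normalized counts were 792, 683 and 753 in NESC against 797 in neurons, so the FPKM difference was not seen on that scale. MAB21L2 stood at 25.0 times LRBA in neurons and at no more than 0.107 times LRBA in the other libraries.

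**Figure D2:**
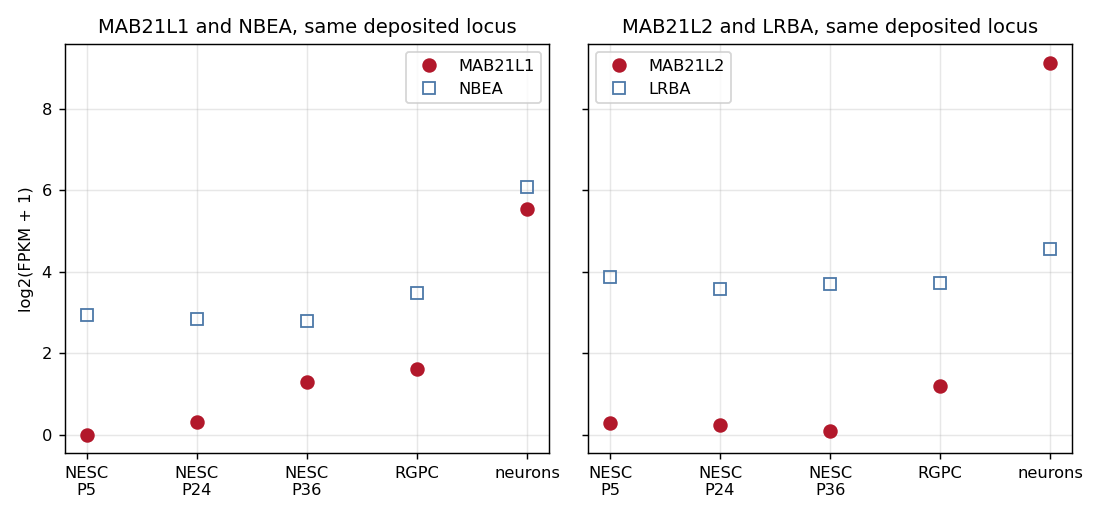
MAB21L1 with NBEA (left) and MAB21L2 with LRBA (right), which share a deposited locus, as log2(FPKM + 1) in each library. NBEA and MAB21L1 are both highest in neurons, whereas LRBA stays within 11.0 to 22.6 FPKM while MAB21L2 reaches 563 FPKM.

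Among the LIM homeodomain factors, LHX5 and LHX1 had reads in most progenitor libraries and LHX9 had few in any library. LHX5 (ENSMMUG00000001577, chromosome 11, 114387252 to 114396458) was at 2.74, 0.169 and 0.874 FPKM in the NESC libraries, 6.56 FPKM in RGPC and 48.4 FPKM in neurons, from 17, 1, 7, 42 and 260 reads. LHX1 (ENSMMUG00000021668, chromosome 16, 46926233 to 46931859) was at 2.62 and 0.672 FPKM in passages 5 and 24, listed at 0 in passage 36, at 3.69 FPKM in RGPC and at 22.0 FPKM in neurons. In the mouse, these related proteins act together in dorsal horn neurons that use inhibitory transmitters. Both were higher in RGPC than in any NESC library and higher again in neurons, and LHX5 exceeded LHX1 by 1.78 times in RGPC and 2.20 times in neurons.

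LHX9 (ENSMMUG00000012259, chromosome 1, 172569370 to 172589067), which in the mouse marks the most dorsal commissural interneurons, had 2 reads in NESC of passage 36, 1 read in neurons and 0 in the other 3 libraries. Its neuron value of 0.250 FPKM has a counting interval of 0.00634 to 1.40 FPKM. These values go against its place among factors that appear in neurons, and it did not pass the filter.

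EBF3 had more reads than any other member in passages 5 and 24 and in RGPC. EBF3 (ENSMMUG00000011447, chromosome 9, 129455660 to 129598937) was at 9.05, 2.85 and 0.853 FPKM in the NESC libraries, 9.29 FPKM in RGPC and 67.4 FPKM in neurons. EBF1 (ENSMMUG00000021696, chromosome 6, 155115308 to 155257318) was at 1.11, 2.12 and 2.87 FPKM in the NESC libraries, 5.74 FPKM in RGPC and 20.1 FPKM in neurons. Across the NESC libraries the paralogs ran in opposite orders, since EBF3 was highest and EBF1 lowest at passage 5. The ratio of EBF3 to EBF1 was therefore 8.13 at passage 5, 1.34 at passage 24 and 0.297 at passage 36, before it stood at 1.62 in RGPC and 3.36 in neurons. NESC passages 5 and 36 differ in this ratio by more than RGPC and neurons do, and with 1 library per passage this has no replicate check.

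BCL11A (ENSMMUG00000011303, chromosome 13, 60603700 to 60704828) was at 71.5 FPKM in neurons, from 385 reads, and was listed at 0 in all 3 NESC libraries and in RGPC. It was the only member without a read outside neurons, and 1 of 2 genes in the table with at least 300 reads in neurons and 0 in every other library, the other being C1ORF61. A 0 in this table can be a failed estimate. Counts of at least 300 in some library beside 0 elsewhere were found for 32 genes, among them the RNA-binding protein gene YBX1, with 12583 and 13772 reads in passages 5 and 36 and 0 in the other libraries. For this reason BCL11A is given no fold change. Its relative BCL11B was at 0.431 FPKM in neurons and listed at 0 elsewhere.

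NR4A2 (ENSMMUG00000011607, chromosome 12, 19932769 to 19941004), the receptor also called NURR1, was at 0.201, 0.302 and 0.434 FPKM in the NESC libraries, 0.491 FPKM in RGPC and 14.1 FPKM in neurons. It had 4, 5 and 10 reads across NESC, 9 for RGPC and 226 in neurons. It was the lowest in neurons of the 8 factors highest there, ranking 7494 of 12178 genes. NR4A1, a relative that responds to stimuli as an immediate early gene, was at 13.8, 12.8 and 16.6 FPKM in the NESC libraries, 11.9 FPKM in RGPC and 7.82 FPKM in neurons (log2 fold change −0.80 ± 0.29 SE in neurons, limma adjusted p = 0.0849). Thus NR4A1 exceeded NR4A2 in every progenitor library, and the order was the opposite in neurons.

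In neurons the 8 detected factors fell into steps by FPKM. MAB21L2 came first, then BCL11A and EBF3 (counting intervals 64.5 to 79.0 and 63.0 to 72.0 FPKM), then LHX5 and MAB21L1 (42.7 to 54.7 and 39.2 to 53.2 FPKM). LHX1 and EBF1 followed (18.3 to 26.3 and 16.2 to 24.6 FPKM), and NR4A2 was last (12.3 to 16.0 FPKM). Within each of these 3 pairs the counting intervals overlapped, so their order was not resolved at this depth even before any spread between cultures. The 9 factors summed to 853 FPKM in neurons, or 289 FPKM without MAB21L2, and to 29.1 FPKM in RGPC and 6.54 to 15.9 FPKM in the NESC libraries.

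Neurons lay at least 2-fold above the NESC mean and outside the NESC range for 8 of the 9 measured factors, on the scale of log2(FPKM + 1). Among all genes tested, 20.7% did so and 20.1% were as far below. Neurons were also the highest of the 5 libraries for 8 of the 9, against 36.3% of genes tested. Because the factors were chosen for this contrast, these counts describe the choice only. Their median difference between neurons and NESC was 4.04 on that scale, against −0.022 over all genes tested.

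RGPC were compared with NESC to see whether the factors were already present after CHIR99021 withdrawal. The contrast shares its NESC libraries with the one the factors were chosen on, and 4 of the 8 factors tested (MAB21L1, MAB21L2, BCL11A and NR4A2) passed the filter through neurons only, so the counts of factors higher in RGPC are a description and not independent of that choice. In FPKM, 7 of the 9 measured factors were higher in RGPC than in every NESC library, against 39.1% of all genes tested. By the deposited normalized counts 6 of 9 were, against 40.1%, since EBF3 was then higher at passage 5 (153) than in RGPC (145). The exceptions on the FPKM scale were BCL11A and LHX9, listed at 0 in RGPC. None of the 8 factors tested passed by limma, where the background of called genes was 0% (0 of 12178), or by edgeR on the recovered reads, also 0%. At an unadjusted p under 0.05 there were 3 of the factors by limma, namely MAB21L2, LHX5 and EBF1, beside 14% of all genes tested (1709 genes). By edgeR there were 2, MAB21L2 and LHX5, beside 13.3% (1616 genes).

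On the log2(FPKM + 1) scale the largest of these differences was that of LHX5 (log2 fold change 1.91 ± 0.69 SE, limma adjusted p = 0.338). LHX1 gave 1.36 ± 0.76 (limma adjusted p = 0.467), EBF3 1.31 ± 0.95 (0.563) and EBF1 1.19 ± 0.44 (0.345). For EBF3, passage 5 was at the RGPC level and the other passages were below it. MAB21L1 and MAB21L2 gave 1.07 ± 0.59 (limma adjusted p = 0.464) and 0.99 ± 0.30 (0.311), and NR4A2 gave 0.19 ± 0.30 (0.793). That scale understates changes of genes as low as these, and by edgeR on reads MAB21L2 had the largest difference (log2 2.93, edgeR adjusted p = 0.226), ahead of LHX5 (2.35, 0.331).

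**Figure D3:**
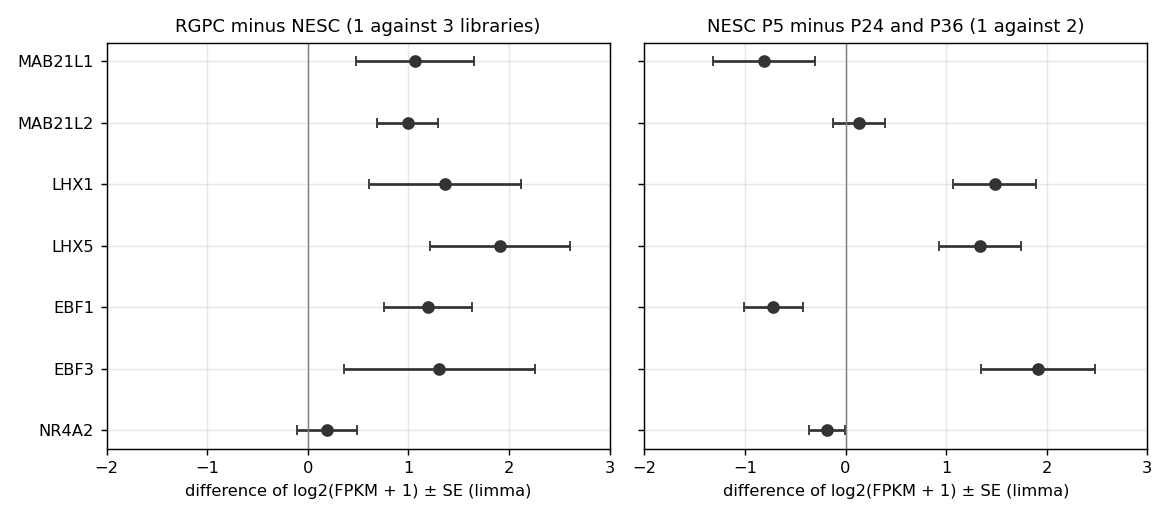
Differences of log2(FPKM + 1) with limma standard errors for the 7 factors with reads in RGPC or NESC that passed the filter, for RGPC minus NESC (left) and NESC passage 5 minus passages 24 and 36 (right). All 7 points on the left lie above 0 with adjusted p of at least 0.311. On the right LHX1, LHX5, EBF3 and, at 0.14, MAB21L2 lie above 0 while MAB21L1, EBF1 and NR4A2 lie below it.

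At least 2-fold and above the NESC range in RGPC were 5 of the 9 factors (MAB21L1, LHX1, LHX5, EBF1 and EBF3), against 6.27% of the genes tested, with 2.3% as far below the range. The count of 5 became 3 without the passage 36 library, 2 after quantile normalization and 0 with a pseudocount of 5. Quantile normalization moved the median difference of all genes by −0.12, from 0.11. The median over the 9 factors was 1.07, against 0.11 over all genes tested.

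Set against passage 36 alone, from which RGPC were made, the counting interval left out equal levels for 4 factors and included them for 2. EBF3 had 140 reads in RGPC against 18, or 9.97 times as many relative to library totals (95% counting interval 6.08 to 17.3). LHX5 had 42 against 7, or 7.69 times (3.42 to 20.3), and EBF1 30 against 19, or 2.02 times (1.10 to 3.80). LHX1 had 24 reads in RGPC and was listed at 0 in passage 36. MAB21L2 had 16 reads against 1, a ratio of 20.5 with an interval of 3.18 to 860. For MAB21L1 (1.44, interval 0.494 to 4.29) and NR4A2 (1.15, interval 0.415 to 3.16) the interval included equal levels. These intervals compare a pair of libraries and cover counting error only.

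Of 10 pan-neuronal markers, 5 were above every NESC library in RGPC (TUBB3, DCX, MAP2, ELAVL3 and SYT1), beside 39.1% of all genes tested, and their part in the result was not tested. DCX, which binds microtubules in migrating young neurons, stood at 19.2, 10.9 and 5.93 FPKM in the NESC libraries against 50.7 FPKM in RGPC and 338 FPKM in neurons. The other 5 lay within the NESC range, such as NEFM at 112 FPKM against 91.4 to 237 FPKM and STMN2 at 110 FPKM against 6.10 to 159 FPKM. None of the 10 was at 0 in RGPC. As a share of the neuron level, the RGPC level of these markers ran from 5.61% for SNAP25 to 56.4% for NEFM, with a median of 13.5%. Among the factors, EBF1 stood at 28.6% of its neuron level, LHX1 at 16.7%, EBF3 at 13.8% and LHX5 at 13.6%, inside that range. MAB21L1 at 4.48%, NR4A2 at 3.49% and MAB21L2 at 0.230% were below the lowest marker, and BCL11A, listed at 0 in RGPC, was not placed.

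**Figure D4:**
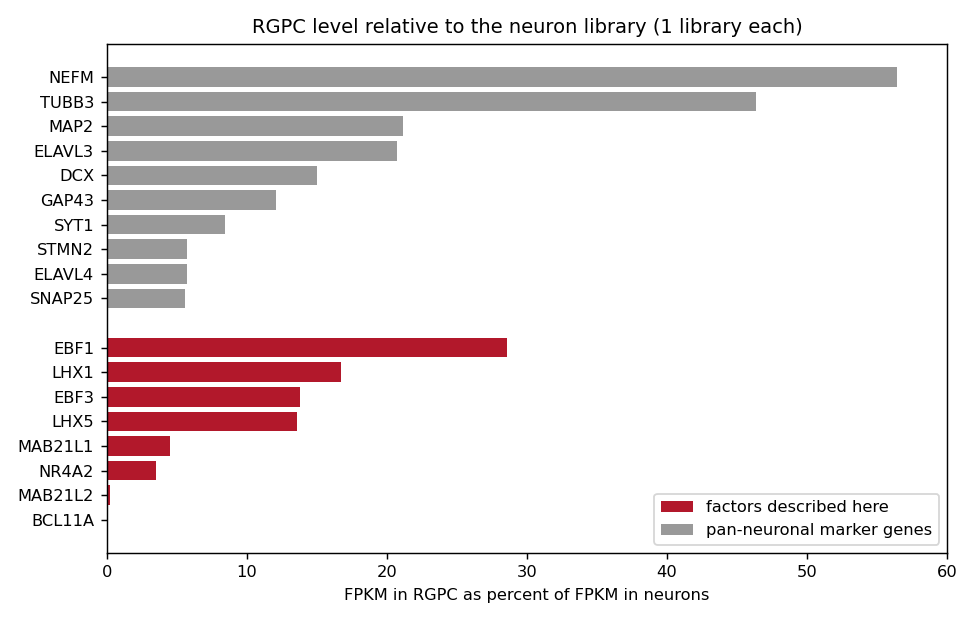
FPKM in RGPC as a percent of FPKM in neurons (horizontal axis) for 8 factors (red) and 10 pan-neuronal marker genes (grey), from 1 library each. EBF1, LHX1, EBF3 and LHX5 fall between 13.6% and 28.6%, within the markers' range of 5.61% to 56.4%, MAB21L1, NR4A2 and MAB21L2 lie below it, and BCL11A is drawn at 0 because it was listed at 0 in RGPC.

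Before differentiation, passage 5 was set against passages 24 and 36. In passage 5, 4 of the 9 factors were above both later libraries (MAB21L2, LHX1, LHX5 and EBF3), against 35.2% of the genes tested, and 3 were below both (MAB21L1, EBF1 and NR4A2), against 36.8%. None of the 8 factors tested passed by limma (background 0%), and 3 had an unadjusted p under 0.05 (LHX1, LHX5 and EBF3), beside 10.1% of genes (1225). By edgeR, 0.23% of genes (28) passed, none of them a factor described here, and 3 factors had an unadjusted p under 0.05, again LHX1, LHX5 and EBF3, beside 11.7% of genes (1428). EBF3 gave the largest difference (log2 1.91 ± 0.57 SE, limma adjusted p = 0.465), followed by LHX1 (1.48 ± 0.41, limma adjusted p = 0.441) and LHX5 (1.34 ± 0.41, 0.465). EBF1 gave −0.72 ± 0.29 (limma adjusted p = 0.561). The summed pan-neuronal markers were alike across the passages, and single markers went both ways, with 5 of 10 above and 2 of 10 below both later libraries at passage 5. Among those above were STMN2, a protein of growing axons, at 159, 19.9 and 6.10 FPKM, and the RNA-binding protein gene ELAVL4 at 27.0, 1.94 and 0 FPKM. Those below were the neurofilament gene NEFM, at 91.4, 226 and 237 FPKM, and MAP2, a microtubule protein of dendrites, at 22.7, 28.0 and 53.5 FPKM. Their part in the passage differences was not tested.

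Some of these genes are also known from other tissues, and the markers of other cell types named here were at or below 9.62 FPKM in neurons, the highest being TWIST1 of mesenchyme. The neural crest and Schwann cell list (5 genes) summed higher, to 46.0 FPKM in neurons, 73.0 FPKM in RGPC and 11.3 to 30.4 FPKM over the NESC libraries, and its part in the results was not tested. The eye and retina list (3 of 8 genes in the table) summed to 2.66 FPKM in neurons against 10.1 to 15.7 FPKM over the NESC libraries, with MITF at 0.640 FPKM and RLBP1 at 2.02 FPKM in neurons. PAX5, the marker of B lymphocytes in the table (1 of 5), was at 0.533 FPKM, from 2 reads. The mesenchymal list (6 of 7 in the table) summed to 5.08 to 62.4 FPKM in the NESC libraries, 7.71 FPKM in RGPC and 11.7 FPKM in neurons, with the collagens COL1A1 and COL3A1 listed at 0 in neurons. The kidney and gonad list (3 of 5) summed to 3.73 FPKM in neurons, mostly from PAX8 at 3.20 FPKM, which hindbrain and spinal neurons also express. Its sum was 0.331 to 2.61 FPKM in the NESC libraries and 0.236 FPKM in RGPC. SOX10 of neural crest was at 0.210 FPKM from 2 reads, and ISL1 of peripheral sensory neurons was listed at 0. The sensory list (4 of 5 in the table) summed to 5.13 FPKM in neurons, mostly from PRPH at 4.57 FPKM. In the NESC libraries it summed to 0.574 to 2.99 FPKM and in RGPC to 1.89 FPKM. The endothelial list summed to at most 0.252 FPKM in any library, and POU5F1 of pluripotent cells was listed at 0 in RGPC and neurons. The glial list summed to 0.392 to 1.57 FPKM in the NESC libraries, 1.84 FPKM in RGPC and 6.09 FPKM in neurons. The part of these lists in the results was not tested.

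Relatives and partners of the factors were examined for company in neurons. The 13 lists held 116 distinct genes, of which 85 were in the table and 54 passed the filter. In neurons against NESC, 24 of the 54 rose, 1 fell and 29 did not pass the limma test, while over all genes tested 39.8% were called, 19.2% higher and 20.5% lower. Of the 24, 7 passed the filter through neurons only, among them LMO1, PAX2, NEUROD2, NEUROD6 and CUX2, so the rise of these genes is not independent of the filter. Also of the 24, 3 were listed at 0 in every NESC library, where a 0 can be a failed estimate. Without the passage 24 NESC library 12 rose and 0 fell. The genes had been listed with earlier results of these data known. In RGPC 0 of the 54 passed by limma or edgeR, and 10 had an unadjusted p under 0.05 by limma, beside 14% of all genes tested.

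Of the LIM domain partners, 5 of 9 tested genes rose, and of the LIM homeodomain relatives 0 of 1. LDB1, the adaptor that dimerises LIM homeodomain complexes, rose from 66.3, 62.4 and 72.2 FPKM to 133 FPKM (log2 fold change 0.98 ± 0.17 SE, limma adjusted p = 0.0148, and 0.0603 without passage 24). SSBP3, which stabilises LDB proteins, rose from 75.8, 78.4 and 75.7 to 235 FPKM (1.61 ± 0.15, limma adjusted p = 0.00497). LMO1, a LIM-only protein that competes for LDB1, rose from 2.84, 0.324 and 0 to 43.1 FPKM (4.68 ± 0.82). This call was lost without passage 24 or with a pseudocount of 0.1. With at most 12 reads in any library outside neurons, LMO1 passed the filter through neurons only, so its rise is not independent of the filter. LMO4 rose to 110 FPKM from 36.4 to 48.8 FPKM, a call also lost without passage 24. ISL2, of motor neurons, was the LIM homeodomain relative with enough reads, at 0.856, 6.07 and 11.7 FPKM in the NESC libraries and 10.0 FPKM in neurons (1.00 ± 1.10, limma adjusted p = 0.494).

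Of the genes tied to EBF, ZNF521 and ZNF423, zinc finger proteins that bind and inhibit EBF factors, both rose. ZNF521 went from 17.3, 16.5 and 16.8 FPKM in the NESC libraries to 27.3 FPKM in RGPC and 59.5 FPKM in neurons (1.76 ± 0.21 in neurons, limma adjusted p = 0.00642). ZNF423 reached 38.7 FPKM from 15.2, 21.6 and 20.2 FPKM (1.00 ± 0.28, limma adjusted p = 0.0454), and this call was lost without passage 5, 24 or 36 (0.0557, 0.0860 and 0.0767). EBF2, at 3.48 FPKM in neurons and 0.204 to 1.76 FPKM in the NESC libraries, did not pass (1.33 ± 0.53, limma adjusted p = 0.108, but 0.0281 without passage 5). MB21D2, a distant MAB21 relative, rose from 4.65, 7.47 and 5.63 to 25.7 FPKM (1.97 ± 0.35, limma adjusted p = 0.0151).

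Of the NR4A relatives and partners, 1 of 4 tested genes rose. RXRB, a retinoid receptor that can pair with NR4A2, rose from 15.3, 9.93 and 15.4 to 33.4 FPKM (1.27 ± 0.34, limma adjusted p = 0.0397), a call lost without passage 5, 24 or 36 (0.0596, 0.0669 and 0.0556). RXRA was at 12.9, 23.4 and 17.7 FPKM in the NESC libraries and 33.8 FPKM in neurons (0.91 ± 0.37, limma adjusted p = 0.112). Of 12 dopaminergic neuron genes 7 were in the table and 2 passed the filter, neither of which passed the test. EN1, a midbrain and hindbrain factor, was at 0.796 FPKM in neurons against 1.72 to 5.10 FPKM in the NESC libraries (−1.21 ± 0.53, limma adjusted p = 0.128). DLK1 lay within the NESC range at 8.65 FPKM.

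In the PRDM list 2 of 8 tested genes rose and 1 fell. PRDM11 rose from 0.981, 0.996 and 1.09 to 4.20 FPKM (1.36 ± 0.29, limma adjusted p = 0.0233), a call lost without passage 24 or 36 (0.0897 and 0.0626). PRDM1, a repressor known from lymphocytes and germ cells, was at 2.26, 11.4 and 9.09 FPKM in the NESC libraries and 0.736 FPKM in RGPC, and was listed at 0 in neurons (limma adjusted p = 0.0475, and 0.119 without passage 24 or 0.0790 without passage 36).

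Of the dorsal spinal list, where LHX1 and LHX5 also act, both genes tested rose in neurons. PAX2, which marks GABAergic interneurons, rose from 0.372, 0 and 0.148 FPKM to 47.9 FPKM (5.39 ± 0.33) and was listed at 0 in RGPC. With at most 2 reads in any library outside neurons, PAX2 passed the filter through neurons only, so its rise is not independent of the filter. LBX1, which separates dorsal interneuron classes, rose from 0, 5.47 and 2.23 FPKM to 78.2 FPKM (4.85 ± 1.05, limma adjusted p = 0.0242), with 9.51 FPKM in RGPC. The LBX1 call was lost with a pseudocount of 0.1 (limma adjusted p = 0.0968) or without the minimum of reads (0.0785). The list held 13 genes, of which 2 were tested. Of 3 tested ventral spinal genes (EN1, ISL2 and VSX1) 0 passed, and VSX1 had reads only in passages 5 and 24, at 3.03 and 0.249 FPKM.

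**Figure D5:**
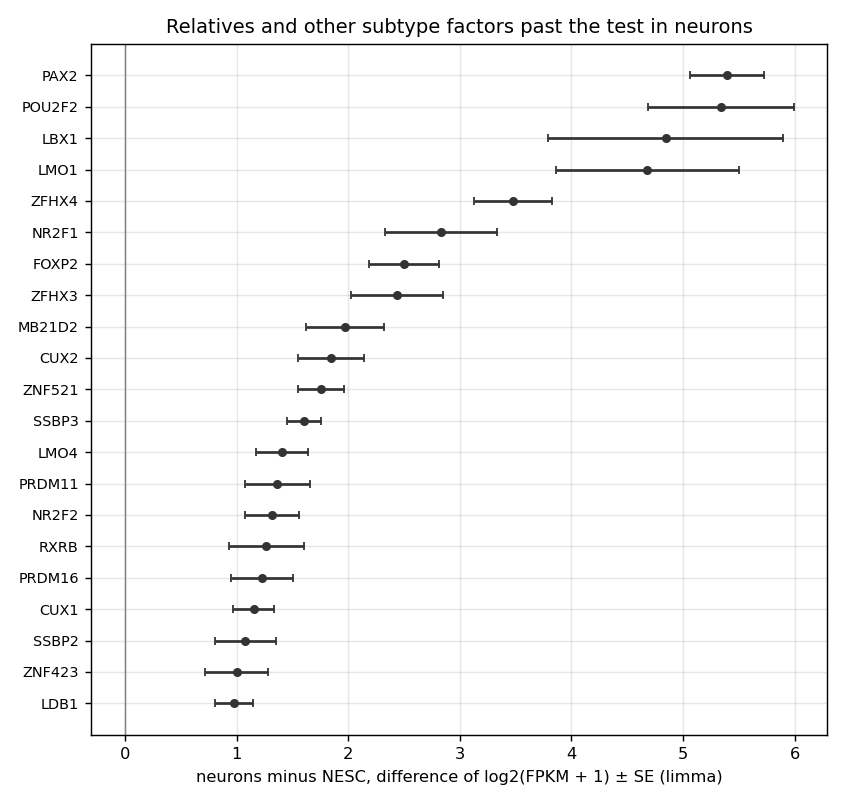
Difference of log2(FPKM + 1) between neurons and NESC, with limma standard errors, for 21 of the 25 listed relatives and subtype factors past the test. The others are left out because they were listed at 0 in neurons or in all NESC. PAX2, POU2F2, LBX1 and LMO1 lie farthest to the right, at 4.68 to 5.39, and of these PAX2 and LMO1 passed the filter through neurons only.

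Of the broad neuronal factors 4 of 11 tested genes rose. POU2F2, a POU factor of several interneuron classes, rose from 1.70, 0 and 0.110 FPKM to 57.3 FPKM (5.34 ± 0.66, limma adjusted p = 0.00689), with 5.53 FPKM in RGPC (2.18 ± 0.66, limma adjusted p = 0.308 there). ZFHX4, a large zinc finger homeodomain protein, rose from 4.99, 6.61 and 8.34 to 82.6 FPKM (3.47 ± 0.35, limma adjusted p = 0.00529). NHLH2, a bHLH factor of young neurons, did not pass, at 39.2, 3.11 and 1.39 FPKM in the NESC libraries and 62.3 FPKM in neurons (3.11 ± 1.63, limma adjusted p = 0.187, but 0.0131 without passage 5). In the midbrain and hindbrain list 3 of 5 tested genes rose. NR2F1, an orphan receptor that patterns the brain, rose from 29.3, 73.1 and 48.1 to 341 FPKM (2.83 ± 0.51, limma adjusted p = 0.0150, and 0.0554 without the minimum of reads), with 197 FPKM in RGPC, and FOXP2, a forkhead factor, rose from 0.953, 0.845 and 1.25 to 10.4 FPKM (2.50 ± 0.31, 0.00707). TFAP2B varied from 0.098 to 29.0 FPKM within NESC and was at 58.8 FPKM in neurons (limma adjusted p = 0.307).

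From the cortical list 4 of 6 tested genes rose, at low levels for 3 of them. NEUROD2 and NEUROD6, bHLH factors of glutamatergic neurons, were at 6.33 and 3.92 FPKM in neurons and listed at 0 in every other library, so no fold change is given although limma called both. CUX2, a homeodomain factor, rose from 0.235, 0.311 and 0.0750 to 3.33 FPKM (1.85 ± 0.30), a call lost without passage 24. NEUROD2, NEUROD6 and CUX2 passed the filter through neurons only, so the count of 4 of 6 is not independent of the filter. CUX1, the fourth, rose from 26.5, 28.2 and 28.7 to 63.0 FPKM (limma adjusted p = 0.0117, and 0.0510 without passage 24).

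Genes whose levels over the 5 libraries came nearest to the mean pattern of the 9 factors were found by Euclidean distance between centred log2(FPKM + 1) values, among 10170 genes with a symbol and at least 50 reads in a library. TMEM196, a membrane protein gene, was nearest (distance 0.216), at 0.379, 0.0443 and 0.0945 FPKM in the NESC libraries, 0.910 FPKM in RGPC and 19.1 FPKM in neurons. TMEM196 shares its deposited locus with another gene, so its reads may not be fully separated. CHN2, which encodes a Rac regulator, followed (0.354), and then SLC12A5 (0.375), which encodes the chloride exporter KCC2 of neurons and went from 0.343 to 0.575 FPKM in the NESC libraries to 1.18 FPKM in RGPC and 33.2 FPKM in neurons. MASP1 (0.383), BSN (0.424), a protein of the presynaptic zone, KCNK3 (0.429), PKIA (0.433) and GPR137C (0.443) completed the 8 nearest. The factors themselves lay farther from their own mean, from 0.925 for NR4A2 to 4.10 for MAB21L2. With 5 libraries, and neurons so far from the rest, many genes share such a pattern, and the distances describe these libraries only.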

How the data were processed

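Messenger RNA was fragmented, copied with random primers and sequenced from 5 libraries, and the authors used TopHat2 2.0.9, per the submitters' processing notes; neither the counting program nor the build or annotation is given there. Per the file headers, the deposited table gives FPKM and a normalized count. The deposited normalized counts are a signal that equals whole reads times 1 factor per library: dividing by it gave whole reads, within 0.1 read, for 100% of values in 4 libraries and 99.99% in the other.

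Genes with at least 1 FPKM and 20 reads in at least 1 library were tested on log2(FPKM + 1) with limma 3.58.1 (trend, two-sided, R 4.3.3), Benjamini-Hochberg adjusted over all 12178 genes, threshold 0.05. Cell states came from a model with 3 groups (2 residual degrees of freedom) and passage 5 from one with 4 groups (1 degree); a lone library was taken to vary as NESC do. As an alternative, edgeR 4.0.16 used the recovered reads. Both were tested on simulated data for RGPC and neurons against NESC, not for passage 5. Values after ± are limma standard errors. Counting intervals are exact (Poisson, or the binomial split of a pair's reads) at 95%. Relatives were named as the 3 with the largest neuron difference per list, with LDB1, CUX1 and BCL11B chosen after their values were seen. Members and lists were chosen with earlier results of these data known. Promoter and protein sequences were not used here. Some listed genes are not reported here.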

Additional observations from a re-analysis of the deposited data

How the results depend on the processing

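No paired analysis was possible because RGPC and neurons have 1 library each and share fewer than 2 replicate numbers with NESC. Passage 5 against later passages without a library leaves no residual degrees of freedom and was not run, and promoter motifs were not searched. In all 91 alternative values of 7 factors, RGPC stayed above NESC and no call was made (log2 0.039 to 2.93, lowest adjusted p = 0.226 by edgeR for MAB21L2). The 68 alternative values for neurons stayed above NESC (0.039 to 11.8), but the factors were chosen for this contrast, so these values are a description. They include 7 for BCL11A, which was listed at 0 outside neurons. A further 5 are for LHX9, with 1 read in neurons and 2 in NESC of passage 36.

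Genes called in RGPC against NESC went from 0 to 106 with no minimum of reads and 296 with no filter; other settings gave 0, as did leaving out a library (0 to 0). Genes called at passage 5 went from 0 to 6 (pseudocount 5), 9 (FPKM of at least 5), 22 (quantile normalization) and 28 (edgeR). Leaving out 1 NESC library gave 2164 to 4478 calls for neurons against NESC (4841 with all) and 0 to 1863 for neurons against RGPC (1836 with all), lowest without passage 24, and the latter was 1101 with no minimum of reads. The median of the factors in RGPC (1.07) became 1.67 and 0.349 with pseudocounts of 0.1 and 5, 0.801 against passage 36 alone, and 0.930 to 1.01 without 1 library. In neurons (4.04) the same settings gave 5.22, 3.07, 4.53 and 3.59 to 4.68. Scaling used only genes past the filter, so without LHX9: over those 8 factors, the RGPC median of 1.13 became 0.874 after quantile normalization and 1.06 after median-of-ratios scaling, and the neuron median of 4.33 became 4.22 and 4.38. Genes at least 2-fold apart in RGPC numbered 1044, or 446 with a pseudocount of 5; quantile normalization changed the share of higher ones from 73.2% to 53.2%, and median-of-ratios scaling to 62.5%. The settings tried for the count of factors at least 2-fold higher in RGPC were chosen after seeing the data. The cause of these changes was not tested. Of the 9 factors, 8 had fewer than 20 reads in every NESC library; whether depth limited the calls was not tested, and genes of at least 5 FPKM gave 0 calls in RGPC too.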
